A study of Mus musculus with 5 samples.

Results

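Cxxc1 (CXXC finger protein 1) occupied places inside protein-coding genes, more than 1 kb from any protein-coding start, in the chromatin of DP (double-positive) thymocytes. These are T cell precursors with CD4 and CD8 together on their surface. These gene-body peaks were chosen from the Cxxc1 peak list of wild-type (WT) cells by position and not by any H3K4me3 value. Listed windows of 200 bp were joined into a peak where at most 2 windows were missing between them. A peak was kept if it lay on an autosome, summed to at most 10 RPM (its tag count scaled to the mapped tags of the library), had its midpoint inside a protein-coding gene, and did not overlap 1 kb either side of any protein-coding transcription start site (TSS). Of 4352 Cxxc1 peaks in all, 4324 were autosomal and at or under the RPM limit, and 2077 of these met the rule. The other autosomal peaks at or under the limit were 415 promoter peaks, which touched a TSS window, and 1832 intergenic peaks.

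Chromatin immunoprecipitation with sequencing was performed on DP thymocytes from the thymus of WT and Cxxc1-deficient mice, with 1 library for each antibody and genotype. Per the study's methods, WT mice carried the floxed Cxxc1 alleles (Cxxc1 fl/fl) without Cre, and Cxxc1-deficient mice carried them with hCD2 Cre, which removed exons 4 and 5 early in thymocyte development and also in other immune cells. The mice were 3 to 4 weeks old unless the study stated otherwise, and the floxed line had been backcrossed to C57BL/6. The titles of the Cxxc1-deficient libraries name a knockout and their genotype label names Cxxc1+/-, and the titles were followed. The 3 peak lists used were that of Cxxc1 in WT cells and those of H3K4me3 in each genotype. Not analysed here were the WT input and the Cxxc1 ChIP of Cxxc1-deficient cells.

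Cxxc1 recognises CpG dinucleotides that are not methylated through its CXXC zinc finger, and it is a subunit of the Setd1 complexes that trimethylate lysine 4 of histone H3 (H3K4me3). H3K4me3 marks active and poised promoters, above all those in CpG islands, which are stretches of DNA rich in CpG. Most CpG dinucleotides inside mammalian genes are methylated and sparse, so a gene body offers few islands. Introns also hold enhancers, which in T cells lie inside many genes of receptor signalling and lineage choice.

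Because every list came from 1 library, no difference below has a replicate check and no p-value is given. Intervals in parentheses are 95% intervals over peaks or genes and cover counting error only. Read from the steps between deposited values, 1 tag was worth 0.11 RPM in the Cxxc1 library and 0.106 RPM in both H3K4me3 libraries, a depth of 9.091 to 9.122 M and 9.434 to 9.473 M mapped tags. Where no peak is listed, the signal is not known and cannot be taken as 0. Of 9 DP thymocyte marker genes, 5 had a WT H3K4me3 peak at the promoter (Cd8a, Cd8b1, Cd3e, Bcl11b and Satb1), where 32.5% of all genes had one. Cd4, Rag1, Rag2 and Themis had none in WT, and Rag1 had one in Cxxc1-deficient cells. A WT promoter peak was listed for 1 of 5 B cell markers (Ebf1), 0 of 4 myeloid, 1 of 2 erythroid (Klf1) and 0 of 5 thymic epithelial markers. The further planned markers Ptcra (DP) and Hba-a1 (erythroid) were not matched to a gene and are left out.

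The strongest 200-bp windows of 11 gene-body peaks are printed here to show how little CpG some strong peaks held and how much the most CpG-dense ones did. All are from the plus strand of mm9, read from the genome sequence of the same assembly, in lower case with each CpG in capitals. The first 3 are from the strongest peaks by RPM, followed by 2 intronic ones of the 5 peaks densest in CpG, 3 of the strongest peaks that overlapped WT H3K4me3, and 3 in T cell or chromatin genes.
Ppp2ca (chr11:51931601-51931800): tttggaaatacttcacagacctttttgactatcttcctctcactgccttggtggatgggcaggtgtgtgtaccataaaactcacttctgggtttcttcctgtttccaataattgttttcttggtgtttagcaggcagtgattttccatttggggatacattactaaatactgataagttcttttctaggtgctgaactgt
Rcsd1 (chr1:167612201-167612400): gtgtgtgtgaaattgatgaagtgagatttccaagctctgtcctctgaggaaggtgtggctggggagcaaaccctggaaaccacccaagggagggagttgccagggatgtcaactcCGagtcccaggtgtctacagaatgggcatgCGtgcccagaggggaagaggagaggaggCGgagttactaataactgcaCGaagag
Spnb2 (chr11:30063001-30063200): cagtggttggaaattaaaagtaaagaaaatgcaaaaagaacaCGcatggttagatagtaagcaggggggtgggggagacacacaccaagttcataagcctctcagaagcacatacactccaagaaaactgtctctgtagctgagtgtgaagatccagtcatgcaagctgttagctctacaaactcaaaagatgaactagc
Tcf20 (chr15:82729401-82729600): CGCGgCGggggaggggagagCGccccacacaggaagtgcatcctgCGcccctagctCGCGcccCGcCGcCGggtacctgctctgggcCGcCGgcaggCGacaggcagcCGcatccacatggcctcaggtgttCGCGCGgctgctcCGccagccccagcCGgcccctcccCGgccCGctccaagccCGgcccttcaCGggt
Jag1 (chr2:136940201-136940400): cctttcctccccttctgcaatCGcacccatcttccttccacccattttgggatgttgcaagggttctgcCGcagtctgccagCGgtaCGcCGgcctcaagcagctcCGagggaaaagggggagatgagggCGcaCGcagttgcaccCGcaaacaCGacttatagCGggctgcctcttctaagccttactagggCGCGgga
Heyl (chr4:122916801-122917000): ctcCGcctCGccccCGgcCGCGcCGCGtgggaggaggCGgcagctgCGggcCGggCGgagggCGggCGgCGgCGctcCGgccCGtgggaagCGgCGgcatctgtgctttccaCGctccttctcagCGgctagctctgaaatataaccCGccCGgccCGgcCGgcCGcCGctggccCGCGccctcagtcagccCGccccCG
Reep1 (chr6:71721601-71721800): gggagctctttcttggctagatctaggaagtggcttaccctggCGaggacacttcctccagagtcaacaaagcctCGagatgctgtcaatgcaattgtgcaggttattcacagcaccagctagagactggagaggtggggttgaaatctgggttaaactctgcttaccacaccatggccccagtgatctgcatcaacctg
Ctsd (chr7:149564401-149564600): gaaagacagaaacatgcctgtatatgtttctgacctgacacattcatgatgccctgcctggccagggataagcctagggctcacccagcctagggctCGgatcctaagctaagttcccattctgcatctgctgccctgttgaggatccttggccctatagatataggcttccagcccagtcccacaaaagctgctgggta
Bcl11b (chr12:109191001-109191200): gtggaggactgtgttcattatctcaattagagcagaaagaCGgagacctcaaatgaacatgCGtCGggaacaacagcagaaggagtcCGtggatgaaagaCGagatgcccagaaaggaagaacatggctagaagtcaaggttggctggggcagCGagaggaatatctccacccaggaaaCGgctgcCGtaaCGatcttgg
Runx1 (chr16:92689001-92689200): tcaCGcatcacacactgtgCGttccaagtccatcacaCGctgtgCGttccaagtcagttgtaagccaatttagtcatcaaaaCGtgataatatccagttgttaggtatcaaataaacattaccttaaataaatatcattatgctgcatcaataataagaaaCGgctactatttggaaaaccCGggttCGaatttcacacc
Arid1b (chr17:5036801-5037000): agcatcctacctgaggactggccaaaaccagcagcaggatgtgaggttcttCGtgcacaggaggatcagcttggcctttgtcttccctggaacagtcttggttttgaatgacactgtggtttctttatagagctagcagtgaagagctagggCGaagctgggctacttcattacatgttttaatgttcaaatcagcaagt
The Ppp2ca window held 0 CpG and the Heyl window 31. The Ppp2ca window began in the third exon of the gene, and the other windows lay in introns of the coding transcripts. Over all gene-body peaks the strongest window held a median of 2 CpG, and 15.7% of these windows held 0. The corresponding window of promoter peaks held a median of 4 CpG, with 5.06% at 0.

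Gene-body peaks were weak, and no broader than promoter peaks. Their median was 1.7 RPM (1.7 to 1.8), about 15 tags, with the central 50% between 1.5 and 2.1 RPM and a range of 1.1 to 6.3 RPM, or 10 to 57 tags. The median width was 1200 bp, from 200 to 4600 bp, beside 1200 bp for promoter peaks and 1000 bp for intergenic peaks. Widths depend on the joining of windows. Intergenic peaks had the same median of 1.7 RPM, and promoter peaks were higher at 2.0 RPM (1.9 to 2.0). At the edges of the rule, the strongest gene-body peak had 6.3 RPM, whereas 3 further peaks that met every other condition lay above the limit and the lowest autosomal peak above it had 11.4 RPM. Of 2380 peaks with a midpoint in a gene, 303 were left out for touching a TSS window. The nearest gene-body peak began 1014 bp from a TSS, and the farthest of those left out came within 995 bp.

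**Figure D1:**
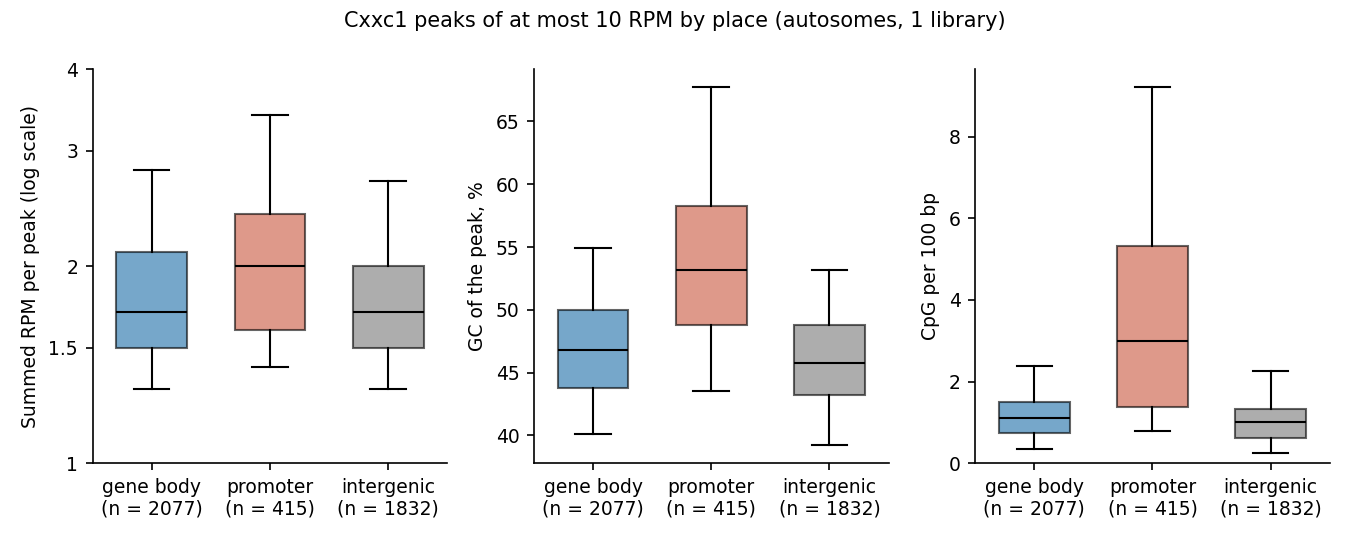
Summed RPM (log scale), GC in percent and CpG per 100 bp of gene-body, promoter and intergenic Cxxc1 peaks of 1 library, as boxes of the central 50% with the median as a line and whiskers from the 5th to the 95th percentile. Gene-body peaks, with medians of 46.8% GC and 1.1 CpG per 100 bp, resembled intergenic peaks in all 3 panels, and promoter peaks reached higher.

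The strongest gene-body peak lay in Ppp2ca, which encodes the catalytic subunit of protein phosphatase 2A. It summed to 6.3 RPM over 800 bp in intron 2 on chromosome 11 (chr11:51931001-51931800), with each of its 4 windows between 1.5 and 1.8 RPM, and 174 bp of it was exon. No H3K4me3 peak of either genotype overlapped it, and the Ppp2ca promoter was listed in neither genotype. The second, at 5.0 RPM, lay in Myc, the transcription factor gene that drives cell growth (chr15:61820801-61821600). Of its 800 bp, 87.5% was exon, and the midpoint was in coding sequence. The next Cxxc1 peak, 800 bp away over another Myc exon, touched a TSS window and had 9.9 RPM, the highest of any autosomal peak under the limit. Both Myc peaks therefore covered mostly exon sequence, with a gap between them.

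The remaining 3 of the strongest 5 were wide intronic peaks. Spink13, a member of the Kazal family of protease inhibitors, held 4.9 RPM over 3600 bp. Rcsd1, which encodes a protein that binds actin capping protein, held 4.7 RPM over 4600 bp, with no window above 0.4 RPM (chr1:167611801-167616400). Spnb2, the gene of a spectrin of the membrane skeleton, held 4.0 RPM over 3200 bp (chr11:30061801-30065000). The strongest peaks thus differed in shape, from 4 windows of similar height in Ppp2ca to 16 low windows in Rcsd1. None of the 5 overlapped a CpG island or a listed H3K4me3 peak.

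Peak density was next compared between gene bodies and the rest of the genome. Gene bodies outside the TSS windows offered 895.4 Mb and held 2.32 peaks per Mb (2.22 to 2.42). Intergenic sequence held 1.27 per Mb (1.21 to 1.33) and TSS windows 7.35 per Mb (6.66 to 8.10). Density in gene bodies was therefore 1.83 times (1.71 to 1.95) that between genes. A peak counted for TSS windows if any base touched one, whereas only bases inside the windows were counted. The value of 7.35 is raised by this and is not on the same footing as the densities by midpoint. Here and below, Mb counts all known bases, whether or not reads could map to them uniquely, and the part of this in the ratios was not tested. Local GC, taken over tiles of 10 kb, went with density on both sides: gene bodies rose from 0.470 peaks per Mb in tiles under 38% GC to 4.31 in tiles of at least 50%, and intergenic sequence from 0.317 to 4.04. Pooled within 8 GC classes the ratio of gene body to intergenic density was 1.38 (1.30 to 1.47), and in the class of at least 50% it was 1.07 (0.871 to 1.31).

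The base composition of the peaks was compared with all 722299 gene-body tiles of 1200 bp. The median GC was 46.8% (46.6% to 47.0%) for gene-body peaks and 42.6% for the tiles, and 25.8% of peaks against 10.5% of tiles had at least 50% GC. Sorted by their own GC, gene-body peaks numbered 0.444 per Mb of tiles between 35% and 40%, 2.06 between 40% and 45%, 4.14 between 45% and 50%, 5.81 between 50% and 55%, and 6.03 (4.86 to 7.41) between 55% and 60%. Density thus rose over the GC range where nearly all the tiles lay. CpG followed GC: gene-body peaks had a median of 1.1 CpG per 100 bp against 0.833 in all tiles and 1.08 in tiles weighted to the peaks' GC. The observed to expected CpG ratio, which divides the CpG count by that predicted from the C and G content, was 0.203 (0.197 to 0.208) in the peaks, 0.179 in all tiles and 0.197 in the weighted tiles. Promoter peaks had a ratio of 0.427 (0.386 to 0.469).

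By the criteria used, CpG islands were rare among gene-body peaks. Of the 2077 peaks, 27 overlapped an island, a share of 1.30% (0.895% to 1.89%), against 58.8% (54.0% to 63.4%) of promoter peaks. With looser criteria (a length from 200 bp, GC from 50% and a CpG ratio from 0.6) the share was 17.0% (15.5% to 18.7%), so the rarity holds only for the stricter definition. The share in intergenic peaks was 1.86% (1.33% to 2.58%), and the difference from gene-body peaks, -0.556 percentage points (-1.39 to 0.230), was not detectable at this count. The 5 peaks densest in CpG lay in Tcf20, Amn, Hes7, Jag1 and Kiss1r, and each overlapped an island. Tcf20, a transcriptional coregulator gene, had 10.8 CpG per 100 bp over 400 bp at 1.7 RPM. Amn, whose product brings cubilin to the cell surface, had 7.89 over 1800 bp at 2.9 RPM. Hes7, a Notch target that runs in the segmentation clock, had 6.6 over 2000 bp at 2.9 RPM. Jag1, which encodes a Notch ligand, had 6.50 over 600 bp at 1.4 RPM, and Kiss1r, the kisspeptin receptor gene, had 6.14 over 1400 bp at 2.2 RPM. Their strength went from below the central 50% of gene-body peaks in Jag1 to above it in Amn, Hes7 and Kiss1r, and 4 of the 5, all but Amn, overlapped a WT H3K4me3 peak.

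Short motifs were counted in the strongest window of each gene-body peak, on both strands, and set beside all 4452291 gene-body tiles of 200 bp. CAGCTG, an E-box as bound by E proteins, was in 12.8% (11.4% to 14.3%) of the peak windows, 8.29% of all tiles and 11.1% of tiles weighted to the windows' GC. CAGGTG, another E-box, was in 17.5% (15.9% to 19.2%), 12.9% and 16.5%, and TGTGGT, the core of the site bound by Runx factors, in 16.2% (14.7% to 17.9%), 14.6% and 15.6%. A CpG was in 84.3% (82.7% to 85.8%) of the windows, 74.3% of all tiles and 82.4% of weighted tiles. The weighted tiles thus lay within the peaks' interval for CAGGTG and TGTGGT and just under it for CAGCTG and CpG. The GC box GGGCGG, in 3.71% of gene-body windows and 18.1% of promoter-peak windows, and CGCG, in 2.84% and 26.5%, set gene-body peaks apart from promoter peaks most. Both of the last motifs contain CG, and a match is a description of the sequence only.

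Most gene-body peaks were intronic, as is most of the sequence they could fall in. Midpoints lay in introns in 1894 cases, 91.2% (89.9% to 92.3%), where 94.1% of the available bases were intronic. Coding exons held 107 peaks, 5.15% (4.28% to 6.19%) against 3.13% of bases, and exons outside the coding sequence held 76, 3.66% (2.93% to 4.56%) against 2.76% of bases. Density in coding exons was 1.70 times (1.39 to 2.07) that in introns, and in untranslated exons 1.37 times (1.07 to 1.72). Exonic peaks also had a higher median GC, 49.0% against 46.7% for intronic ones, and the part of GC in the exon ratio was not tested. First introns, which in many genes carry regulatory elements, held 25.6% (23.6% to 27.6%) of the intronic peaks and 25.8% of intronic bases. Their density was 0.988 times (0.889 to 1.1) that of later introns.

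Pooled over genes, density tended to be lower farther from the start. The distance from the first TSS to a peak had a median of 46.7 kb, with the central 50% between 16.3 and 130.2 kb. Density was 3.17 peaks per Mb (2.69 to 3.71) at 2 to 5 kb, 2.55 (2.30 to 2.82) at 10 to 25 kb and 1.90 (1.71 to 2.10) beyond 200 kb. The value at 1 to 2 kb, 1.19 per Mb, is low by construction, since a peak there must not reach the TSS window. In genes with a WT H3K4me3 promoter peak density went from 3.4 (2.60 to 4.38) at 2 to 5 kb to 2.73 (2.28 to 3.24) beyond 200 kb, intervals that overlap. In the other genes it went from 3.04 (2.45 to 3.72) to 1.62 (1.41 to 1.84), and these do not. Sequence beyond 200 kb exists only in genes over 200 kb, which held 1.96 peaks per Mb in all, at a median GC of 41.5%. The distance classes thus pool different genes, and a decline within genes was not tested.

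**Figure D2:**
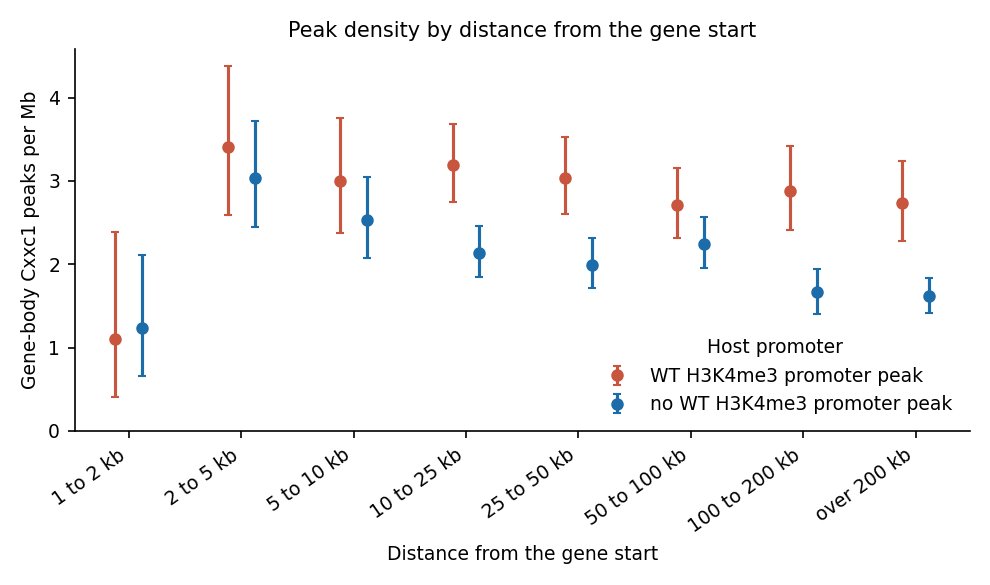
Gene-body Cxxc1 peaks per Mb (with 95% exact Poisson intervals) by distance from the first TSS of the gene, for genes with (red) and without (blue) a WT H3K4me3 promoter peak. Points of marked genes stay between 2.71 and 3.4 from 2 kb on, and those of unmarked genes fall from 3.04 to 1.62.

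The peaks were spread over many genes. There were 1666 host genes, 7.78% of 21410 autosomal protein-coding genes, and 34 peaks lay in a pair of overlapping genes. Of the hosts, 1351 (81.1%) held 1 peak, 233 held 2, 58 held 3 and 24 held 4 or more. Neighbouring gene-body peaks were a median of 472.8 kb apart, and 48 of 2058 neighbours were within 10 kb. The peaks thus lay singly for the most part. Cgnl1, a gene of cell junctions, was the densest of the top 5 hosts, with 5 peaks in 145.1 kb, or 34.7 per Mb. Cacna1d, which encodes an L-type calcium channel subunit, also held 5, in 451.2 kb, and 1700112E06Rik held 6 in 1036.4 kb. The other two top hosts, Gm20388 with 17 peaks and Fgfr2, the gene of a fibroblast growth factor receptor, with 10, are models of 4434.9 and 3009.1 kb in this annotation, with 73 and 31 other protein-coding genes inside them. Leaving out both models left 2058 gene-body peaks in 1664 hosts.

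Hosts were long genes. Their median length was 83.2 kb (76.9 to 89.4 kb) against 13.3 kb (12.9 to 13.7 kb) for other genes, and the share of genes that were hosts rose from 0.921% under 10 kb to 46.7% over 200 kb. A long gene offers more sequence, so density was compared as well, and it did not rise with length: 2.64 peaks per Mb (2.02 to 3.39) in genes under 10 kb, 2.86 (2.55 to 3.18) at 25 to 50 kb and 1.96 (1.82 to 2.11) over 200 kb. The longest genes were also poorest in GC, with a median of 41.5% against 47.6% under 10 kb. Among genes without a WT H3K4me3 promoter peak, density under 25 kb was 1.56 times (1.29 to 1.88) that over 200 kb. Among genes with such a peak the ratio was 1.07 (0.840 to 1.35). Peaks close to a TSS are left out by the rule for touching its window, though the bases just outside that window are counted. This lowers density more in short genes, where such bases are a larger part. How far it lowers the values of short genes was not tested, nor was whether these ratios differ.

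Host promoters carried WT H3K4me3 more often than other promoters. A WT H3K4me3 peak lay within 1 kb of a TSS in 719 hosts, 43.2% (40.8% to 45.6%), against 31.6% (30.9% to 32.2%) of other genes and a background of 32.5% of all genes. The difference was 11.6 percentage points (9.15 to 14.1). Other genes weighted to the hosts' lengths had 35.7%, weighted to their GC 34.0%, and weighted to both 39.9%, just under the lower bound for hosts. Per Mb of gene body, genes with a WT promoter peak held 2.92 gene-body peaks (2.74 to 3.11) and genes without one 1.99 (1.88 to 2.11), a ratio of 1.47 (1.34 to 1.60). Within gene length classes the ratio was 1.43 (1.31 to 1.56), and within classes of gene-body GC it was 1.18 (1.08 to 1.28). The excess at marked genes thus shrank at equal GC but its interval stayed above 1. Across the 8 GC classes it ranged from 1.02 (0.824 to 1.26) at 42% to 44% to 1.45 (0.750 to 2.66) under 38%, and in each class marked genes had the higher value. Only at 44% to 46% did the interval of a single class lie above 1, with a ratio of 1.295 (1.067 to 1.572).

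**Figure D3:**
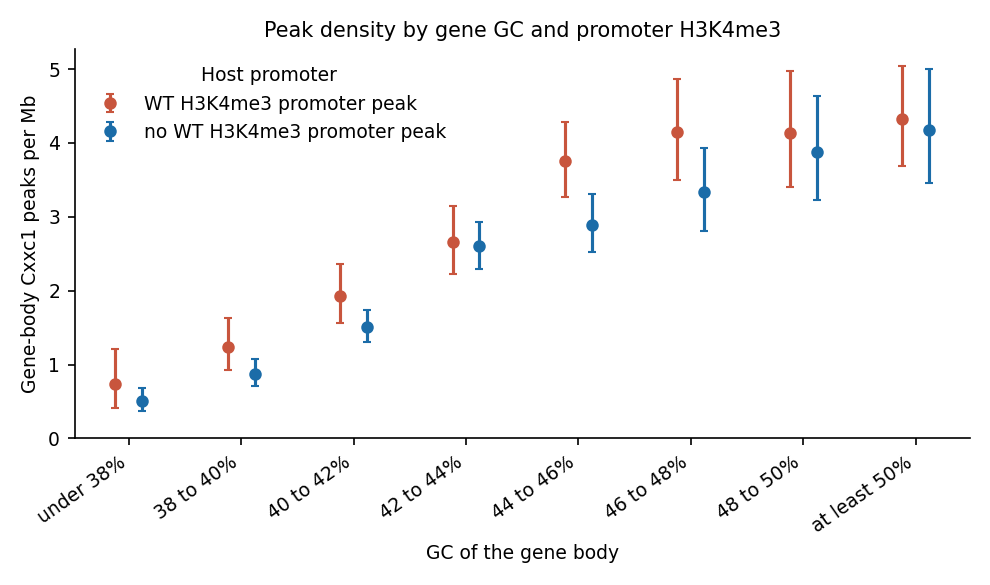
Gene-body Cxxc1 peaks per Mb (with 95% exact Poisson intervals) by the GC of the gene body, for genes with (red) and without (blue) a WT H3K4me3 promoter peak. Density rises from 0.732 and 0.505 under 38% GC to 4.32 and 4.17 at 50% or more, a far wider span than the gap between the colours in any class.

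In Cxxc1-deficient cells a promoter peak was listed for 8.70% (7.44% to 10.2%) of hosts and 5.89% (5.57% to 6.22%) of other genes, against 6.1% of all genes. Of genes with a WT promoter peak, the share that also had a Cxxc1-deficient one was 13.6% (98 of 719, 11.3% to 16.3%) for hosts and 12.7% (11.9% to 13.5%) for other genes, with a background of 12.8%. The difference of 0.952 percentage points (-1.52 to 3.77) was not detectable. Gene-body peak density was 3.41 per Mb (2.85 to 4.05) where the promoter peak was listed in both genotypes and 2.85 (2.66 to 3.06) where it was listed only in WT, a ratio of 1.20 (0.985 to 1.44). Holding a gene-body Cxxc1 peak was thus not seen to go with loss or retention of the promoter peak.

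Few of the gene-body Cxxc1 peaks themselves overlapped listed H3K4me3. How often gene-body sequence in general overlaps H3K4me3 or a CpG island is not compared here, so the shares do not show depletion or enrichment. Of the gene-body peaks, 89 overlapped a WT H3K4me3 peak, 4.29% (3.50% to 5.24%), against 6.2% of all autosomal Cxxc1 peaks at or under the RPM limit, 28.4% (24.3% to 33.0%) of promoter peaks and 3.33% (2.60% to 4.25%) of intergenic peaks. The difference from intergenic peaks was 0.955 percentage points (-0.260 to 2.16). A Cxxc1-deficient H3K4me3 peak overlapped 17 gene-body peaks, 0.819% (0.512% to 1.31%), against 1.09% of all autosomal peaks at or under the limit, 4.58% of promoter peaks and 0.60% of intergenic peaks. The difference from intergenic peaks was 0.218 percentage points (-0.345 to 0.774). There were 4 gene-body peaks that overlapped H3K4me3 peaks of both genotypes. The share with WT H3K4me3 was 6.98% (5.50% to 8.81%) where the host promoter carried WT H3K4me3 and 2.16% (1.46% to 3.16%) where it did not, a difference of 4.82 percentage points (3.04 to 6.79). Both features were read from the same H3K4me3 list, and a single H3K4me3 peak that reached the promoter and the Cxxc1 peak counted for both. Part of the difference can be built in this way, and such cases were not counted. Stronger peaks did not overlap clearly more often, with 4.77% (3.62% to 6.27%) above the median RPM and 3.83% (2.83% to 5.15%) at or below it. The stronger peaks were also wider, with a median of 1600 bp against 800 bp, and strength was not separated from width.

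The 89 peaks with WT H3K4me3 were richer in GC, islands and starts of other transcripts than the rest. An island was present in 11.2% of them and 0.855% of the others, a difference of 10.4 percentage points (5.34 to 18.6). Median GC was 53.6% (52.1% to 54.8%) against 46.6% (46.4% to 46.8%). The region within 1 kb of a TSS of any transcript type, noncoding ones included, was overlapped by 16.9% against 5.68%, a difference of 11.2 percentage points (4.71 to 20.3). Among the strongest of the 89 was Heyl, which encodes a repressor of the Hes-related family downstream of Notch, with a Cxxc1 peak of 3.9 RPM over 2600 bp (chr4:122916401-122919000), H3K4me3 of 1.8 RPM in each genotype and the island shown above. Reep1, a gene of the endoplasmic reticulum, had 3.9 RPM of Cxxc1 and 2.1 RPM of WT H3K4me3, and Ctsd, which encodes the lysosomal protease cathepsin D, had 3.8 and 2.4 RPM. Pgs1, a gene of phospholipid synthesis, had 3.6 and 1.7 RPM, and B4galt3, which encodes a galactosyltransferase, had 3.5 and 2.3 RPM. Heyl alone of these 5 overlapped an island, and alone of them a Cxxc1-deficient H3K4me3 peak.

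T cell genes were examined as a list of 52 genes of T cell development and receptor signalling. Of these, 13 (25%) were hosts, against 7.78% of all genes, with 19 gene-body peaks at 5.25 per Mb (3.16 to 8.19). Genes of the same GC classes would hold 9.18 peaks, so the observed number was 2.07 times that value. All 19 peaks were intronic, between 1.3 and 3.7 RPM. The promoter had WT H3K4me3 in 33 of the 52 genes and in 11 of the 13 hosts, where 32.5% of all genes and 43.2% of all hosts had it. Bcl11b, Lck, Lcp2 and Ptprc, all hosts, are among the T cell genes that the study drew from this same Cxxc1 list. The count is therefore not independent evidence about T cell genes.

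**Figure D4:**
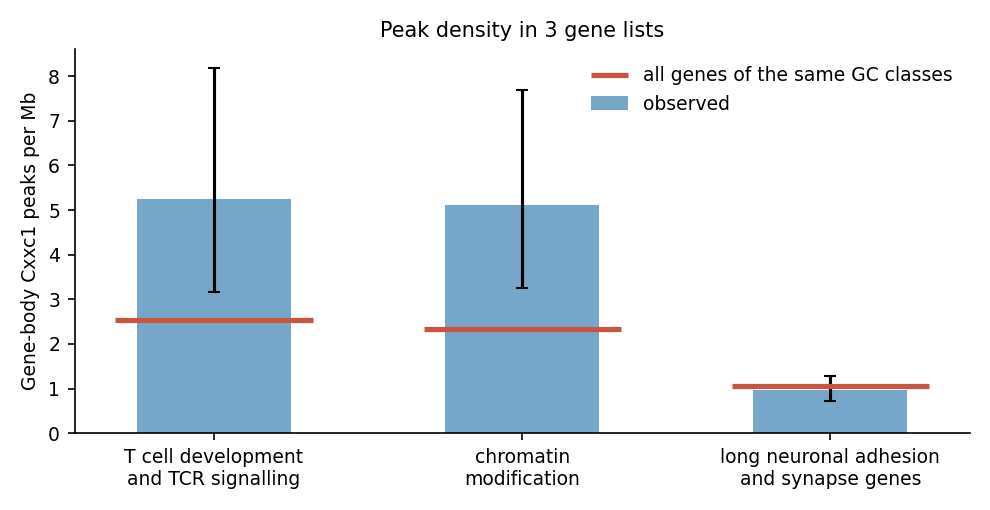
Gene-body Cxxc1 peaks per Mb in 3 gene lists (bars, with 95% exact Poisson intervals) beside the density of all autosomal genes weighted to the same GC classes (red lines). The T cell and chromatin bars, at 5.25 and 5.12 per Mb, stand above their lines in lists whose themes the study had drawn from the same Cxxc1 peaks, and the interval of the neuronal bar, at 0.970, spans its line.

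Bcl11b, the zinc finger repressor that fixes T lineage commitment, held 3 gene-body peaks. They had 2.6 RPM at 4.01 kb from the TSS in intron 1, 3.7 RPM at 22.2 kb in intron 2 and 2.4 RPM at 51.0 kb in intron 3. The peak in intron 2 overlapped a CpG island and no H3K4me3 peak, whereas the other two overlapped WT H3K4me3 of 2.1 and 2.0 RPM, and the first also Cxxc1-deficient H3K4me3 of 1.7 RPM. The peak in intron 3 is the one whose window, with 9 CpG, is printed above. Runx1, which encodes a Runt transcription factor of blood cells, also held 3, at 136.9, 185.8 and 205.0 kb from the TSS with 1.8, 2.0 and 2.2 RPM. The first of these had 3.75 CpG per 100 bp without meeting the island criteria and overlapped no H3K4me3 peak. The second overlapped a Cxxc1-deficient H3K4me3 peak of 2.0 RPM and the third a WT one of 1.8 RPM.

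**Figure D5:**
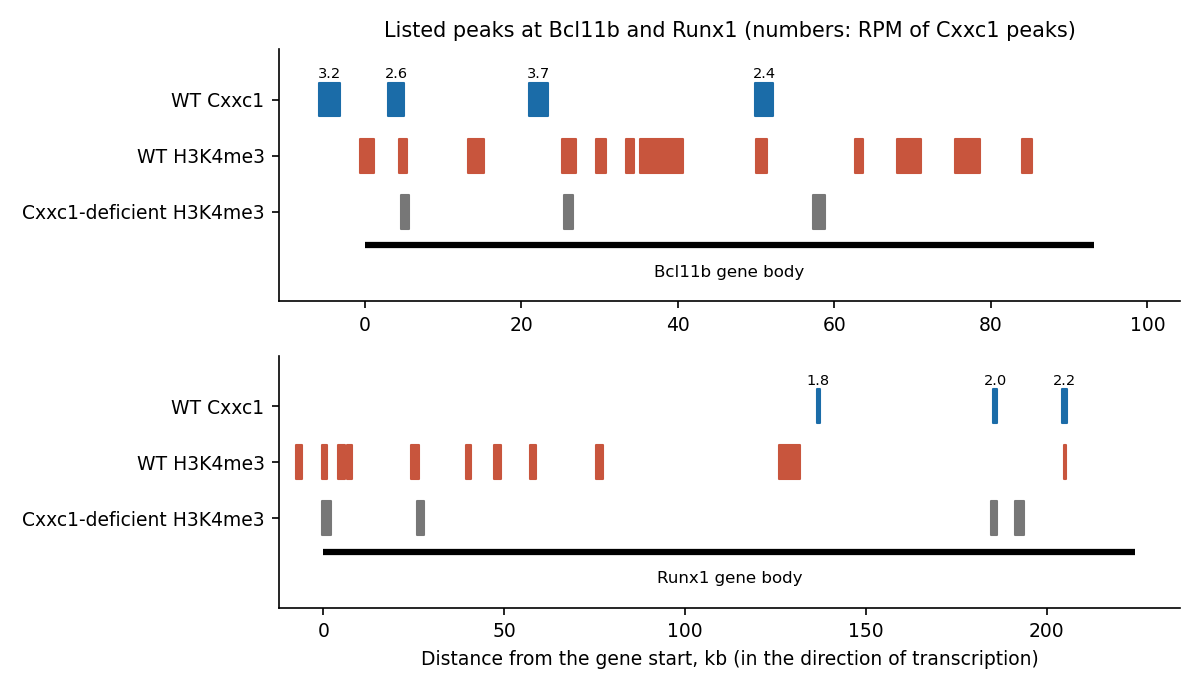
Listed Cxxc1 and H3K4me3 peaks along Bcl11b and Runx1 by distance from the gene start in kb, with the RPM of each Cxxc1 peak above it. In Bcl11b the 3 gene-body Cxxc1 peaks lie in the first 52.2 kb, with a further Cxxc1 peak upstream of the start, and in Runx1 they lie beyond 136.5 kb while most WT H3K4me3 peaks lie nearer the start.

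The other T cell hosts held 1 or 2 peaks. Pag1, an adaptor that restrains Src family kinases, held peaks of 1.4 and 2.5 RPM, and Tcf12, which encodes the E protein HEB, held 1.3 and 2.3 RPM. Lck, the kinase that starts T cell receptor signalling, held 2.3 RPM at 6.68 kb from its first TSS in intron 1. Lcp2, the gene of the adaptor SLP-76, and Ptprc, the gene of CD45, held 1.9 RPM each, and Nfatc3, a transcription factor gene activated by calcium signals, held 1.8 RPM. Tox, needed for the CD4 lineage, held 1.6 RPM, and Cd247, the gene of the CD3 zeta chain, Runx3, needed for CD8 T cells, and Camk4, a calcium-dependent kinase gene, held 1.5 RPM each. Gata3, a regulator of CD4 T cells, held 1.4 RPM. None of the peaks in these 11 genes overlapped a listed H3K4me3 peak. Their promoters carried WT H3K4me3 in all but Lcp2, which was listed only in Cxxc1-deficient cells, and Ptprc, which was listed in neither.

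Genes of chromatin modification were examined as a list of 54. There were 17 hosts (31.5%), against 7.78% of all genes. The list held 23 gene-body peaks, 5.12 per Mb (3.25 to 7.68), which was 2.19 times the number at the same GC. The study had drawn chromatin modification as a theme from this same Cxxc1 list, and Ctcf, Dnmt3a, Hdac1, Hdac2, Hdac7, Kdm3a and Kdm3b were among its genes, so this count is not independent evidence either. Weighting to both length and GC gave 2.15 times, and 1.96 times for the T cell list. WT H3K4me3 was listed at 38 of the 54 promoters and at 9 of the 17 hosts, where 32.5% of all genes and 43.2% of all hosts had it. The hosts of this list thus had it less often than the list as a whole, unlike hosts over all genes. That contrast rests on few genes and was not tested. Arid1b, which encodes a subunit of BAF remodelling complexes, held 4 peaks of 1.7, 1.7, 2.1 and 2.2 RPM, of which the third overlapped WT H3K4me3 of 3.1 RPM. Mll2, which encodes an H3K4 methyltransferase of enhancers, held 3.0 RPM with the midpoint in a coding exon, and Setd2, the H3K36 methyltransferase gene, held 2.9 RPM. Dnmt3a, a de novo DNA methyltransferase gene, held 1.7 and 1.8 RPM, and Ehmt1, an H3K9 methyltransferase gene, 2.1 and 2.2 RPM.

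Further chromatin hosts were largely histone deacetylase and demethylase genes. Among deacetylase genes, Hdac7 held 1.4 and 1.9 RPM, the first over a WT H3K4me3 peak of 5.8 RPM, and Hdac1, Hdac4 and Hdac9 held 1.7 RPM each and Hdac2 2.0 RPM. Among demethylase genes, Kdm3a held 2.5 RPM, Kdm2b, whose product has a CXXC finger like that of Cxxc1, 2.2 RPM and Kdm3b 1.6 RPM. Tet1, which oxidises methylated cytosine, held 2.2 RPM, the acetyltransferase gene Crebbp 2.0 RPM and the insulator gene Ctcf 1.6 RPM. The Crebbp peak had 0.0625 CpG per 100 bp, the lowest among the chromatin hosts. Of these 11 genes, Hdac7 alone had a peak that overlapped listed H3K4me3.

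Long neuronal adhesion and synapse genes, best known from the brain, were often hosts but at low density. Of 47 such genes, 27 (57.4%) were hosts, against 7.78% of all genes and 46.7% of all genes over 200 kb. The list held 47 gene-body peaks, but at a median length of 1021.6 kb and a median GC of 38.2% the density was 0.970 per Mb (0.713 to 1.29). This was 0.910 times the number at the same GC. WT H3K4me3 was listed at 3 of the 47 promoters, against 32.5% of all genes. The 8 hosts with 3 peaks each included Dpp6, a potassium channel partner gene, with 1.9, 1.6 and 1.3 RPM, Grid1, the gene of a delta glutamate receptor, with 1.5, 1.7 and 1.7 RPM, Kcnip4, a channel-interacting protein gene, with 1.4, 1.5 and 1.1 RPM, and Nrxn3, a neurexin gene, with 1.3, 1.5 and 1.3 RPM. Also among them were Ntm and Opcml, genes of cell adhesion molecules, with 1.5 to 2.6 RPM between them, and Rbfox1, a splicing factor gene, with 1.8, 1.3 and 2.3 RPM. The 1.1 RPM peak of Kcnip4 equals the lowest of all gene-body peaks.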

How the data were processed

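Peak windows of 3 of the 5 chromatin immunoprecipitation libraries were used. Per the study's methods and the submitters' processing notes, the authors called islands with SICER 1.1 on mm9 after base calling with CASAVA 1.8.2. The deposited value of each 200-bp window is in RPM, a tag count scaled to the mapped tags of the library and rounded to 1 decimal. Uniquely mapped reads were used, with the input and the ChIP of Cxxc1-deficient cells as controls. The methods do not say whether both served for H3K4me3, and the aligner and the treatment of duplicates are not given in the sources used here. That the Cxxc1 list is from WT cells rests on the study's methods, since its label names no genotype.

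Windows were joined across at most 2 missing windows, RPM was summed, and genes, exons and TSS were taken from GENCODE vM1 on the same assembly, with exons or introns assigned by peak midpoint. Promoter H3K4me3 means a listed peak overlapping 1 kb either side of a TSS of the gene by at least 1 bp. CpG islands had 500 bp or more, GC from 55% and an observed to expected ratio from 0.65. Shares have Wilson intervals, differences of shares Newcombe intervals, densities exact Poisson intervals and ratios exact conditional or Mantel-Haenszel intervals, all 95%. There was 1 library per group, so no test between conditions was made. Named peaks were the 5 strongest, the 5 densest in CpG, the 5 strongest with WT H3K4me3, all in the T cell and chromatin lists, and the hosts with most peaks. A few of these items are not reported here. The peaks and gene lists were chosen with earlier results of these data known. Scripts ran in Python 3.11.15 with numpy 2.4.6, pandas 2.3.3, scipy 1.17.1 and matplotlib 3.10.9, were tested on simulated data, and the H3K4me3 overlap was checked with bedtools 2.31.1. Alternatives changed joining, strength, TSS window, island criteria, overlap and pooling.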

Additional observations from a re-analysis of the deposited data

How the results depend on the processing

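Over 11 results and 50 alternative values, 13 moved, 1 changed direction and 36 did neither. A count was taken as moved beyond 1.5 times its value, and a share, median or ratio when it left its own 95% interval. Joining only windows that touch gave 4694 gene-body peaks and a CpG observed to expected ratio of 0.194. The stronger 50% of peaks gave 1006 gene-body peaks in 910 hosts of median length 94.0 kb. Leaving out 5 kb either side of a TSS gave a first-intron share of 22.2%, an island share of 0.857% and a host length of 101.2 kb, and turned the share of promoter peaks kept in Cxxc1-deficient cells to 12.6% in hosts against 12.8% in other genes. Loose islands, of at least 200 bp, 50% GC and a ratio of 0.6, were met by 17.0% of gene-body peaks, so the rarity of islands depends on the criteria. WT H3K4me3 overlap was 3.47% when 50% of the shorter peak had to be shared and 6.64% within 1 kb. The ratio of density in marked to unmarked genes was 1.18 within GC classes and 1.17 within length and GC classes, both chosen after seeing the data. For the moved values the cause was not tested. No paired analysis was possible because there was a single library for each antibody and genotype.

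About 15 tags lay behind the median gene-body peak and 10 behind the weakest, and what lay under the authors' threshold is not listed. Per the study's summary, the Cxxc1-deficient ChIP and the input that served as controls had fewer unique tags than the WT Cxxc1 library. The bearing of this on weak peaks was not tested. Windows under 0.2 RPM are absent from the lists, so a share of peaks without H3K4me3 is a share without a listed peak. Intervals treat peaks as independent and leave out variation between mice.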

Other observations

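Gene-body Cxxc1 peaks of B cell genes were listed in this DP thymocyte library. Ebf1 and Pax5, transcription factor genes that set B cell identity, held 2 gene-body peaks each, in 390.8 and 180.3 kb. WT H3K4me3 was listed at the Ebf1 promoter. The 5 B cell markers together held 6.77 peaks per Mb (1.84 to 17.3), which was 2.23 times (0.608 to 5.71) the number at the same GC, an interval that includes 1. No gene-body peak was listed in the 4 myeloid, 2 erythroid or 5 thymic epithelial marker genes. These offered little sequence, with 0.283, 0.0258 and 0.227 peaks expected at the same GC, so their lack of peaks shows no contrast with the B cell genes.

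Among chromosomes, gene-body peak density went from 2.02 per Mb (1.68 to 2.41) on chromosome 5 to 2.95 (2.33 to 3.69) on chromosome 19. Chromosome 16 held 2.86 (2.31 to 3.50) at a gene-body GC of 42.2%, and chromosome 7, at 44.3%, held 2.18 (1.8 to 2.62).

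The 4 gene-body peaks that overlapped H3K4me3 of both genotypes lay in Heyl, Bcl11b, Myo18a, which encodes an unconventional myosin, and Lrrc15, which encodes a leucine-rich repeat membrane protein. Their Cxxc1 values were 3.9, 2.6, 2.3 and 1.5 RPM. These genes other than Heyl and Bcl11b were named after their values were seen.

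The strongest gene-body peaks in Ppp2ca and Myc stood apart in shape. The peak in Ppp2ca had 4 windows of 1.5 to 1.8 RPM, and the highest window in Myc had 1.9 RPM, whereas no window exceeded 0.9 RPM in the peaks of Spink13, Rcsd1 and Spnb2. Exon sequence made up 21.75% of the Ppp2ca peak and 87.5% of the Myc peak, and 0 bp of the other three.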
